A study of Homo sapiens with 16 samples.

Results

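The comparison described here asked what a series of cytokine pulses had left in the RNA of colon fibroblasts weeks after the cytokines were gone. Its members are 8 of the 16 libraries of the series, chosen by their labels, namely 4 from cytokine-pulsed cells that later received the vehicle DMSO and 4 from cells that received no cytokine. All libraries came from Ccd18-Co, a fibroblast line grown from human colon and used at up to passage 20, with 25000 cells seeded per well. The pulsed cells received a mix of 4 cytokines 3 times, each time for 72 h in medium without serum and followed by 96 h of recovery. By the labels, TNF, OSM and IL-17A were each given at 10 ng/ml and IL-1B at 0.1 ng/ml, and the study's methods give another IL-1B dose. After 1 week of rest the pulsed cells were kept in DMSO for 5 days, and RNA was taken 2 weeks later. These cells are called vehicle here and the cells without cytokines unstimulated, with libraries numbered 13 to 16 and 1 to 4 as the labels number them. The titles of the unstimulated libraries name DMSO whereas their data columns say none, and the study's methods keep DMSO constant over the treatment groups without naming these cells. If they received no DMSO, what the cytokines left and what the vehicle left cannot be told apart. The remaining 8 libraries came from pulsed cells given, by the labels, belinostat at 250 nM or GSK-J4 at 10 µM in place of DMSO. Legends of the study give other doses for both compounds in its assays. Levels in these 8 libraries are given as description. All values rest on 1 cell line. A legend of the study calls the replicates of this RNA-seq biological, with another number per group than the 4 libraries used here, and the labels do not say that they were separate cultures, so p-values measure only the spread between these samples, which may be technical.

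Fibroblasts carry receptors for all of these cytokines. TNF, IL-1B and IL-17A signal to NF-kB, AP-1 and C/EBP factors, and OSM signals through the gp130 receptor chain to STAT3. In inflamed gut such signals are known to drive fibroblasts to secrete chemokines that attract neutrophils and enzymes that cut collagen. In bulk RNA, fewer cells of a type and less RNA per cell cannot be told apart.

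The 8 libraries held 17.52 to 19.48 M estimated counts in unstimulated cells and 18.4 to 18.78 M in vehicle. All 9 fibroblast markers, collagen chains, decorin and vimentin among them, were tested, and together they held 2.77% to 2.96% of counts in unstimulated and 2.93% to 3.05% in vehicle libraries. Of these markers 1, the proteoglycan gene LUM, was called higher in vehicle (log2 fold change 0.36), a call lost under edgeR and without unstimulated library 1, 2 or 4 or vehicle library 13, 14 or 15, with values of 0.33 to 0.42 over all alternatives. Markers of epithelial, endothelial and immune cells were scarce. The epithelial list peaked at 0.000124% of counts, the endothelial list at 0.000282% and the immune list at 0.00309%, and MUC2, KRT20, CD3E, MS4A1, SOX10 and ELAVL4 were at 0 in all 8 libraries. The list for enteric glia and neurons held 0.00655% to 0.0077% of counts in unstimulated and 0.00632% to 0.00889% in vehicle libraries. The smooth muscle list held 0.0434% to 0.0676% and 0.0518% to 0.0572%, and KIT and ANO1, markers of interstitial cells of Cajal, held 0.0302% to 0.0355% and 0.0297% to 0.0328%. In each of these 3 lists the groups overlapped and 0 members were called by DESeq2. Libraries of the same group differed from each other. On the first principal component of the 8 libraries, which held 34.2% of the variance, vehicle library 16 lay at 8.2 and the other 3 vehicle libraries between 2.87 and 3.69. On the second, with 22.9%, vehicle library 13 lay at -6.91 and the other vehicle libraries between 0.221 and 2.37. Unstimulated libraries ran from -3.57 to 6.67 on it. Vehicle library 16 was the highest vehicle library in 12 of the 20 largest rises, and unstimulated library 1 was the highest of its group in 10 of them. For the 12 rises the value without vehicle library 16 is therefore given too.

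DESeq2 called 282 of 16240 tested genes at an adjusted p under 0.05, or 1.74%. In vehicle, 179 genes were higher (1.1% of those tested) and 103 lower (0.634%). edgeR's quasi-likelihood test called 108 higher and 51 lower at the same threshold. Leaving out unstimulated library 2 left 180 DESeq2 calls, 59 of them lower, and the falls numbered 60 without unstimulated library 4 or vehicle library 16 and 62 without vehicle library 15. Most differences were small. The median log2 fold change was 0.54 among genes called higher, -0.45 among genes called lower and -0.0048 over all tested genes, and 81 of the rises and 66 of the falls were less than 0.5 in size. A size beyond 1.5 on that scale was reached by 41 genes (0.252% of those tested), 35 of them rises and 6 falls. Of these 41, 19 averaged 50 normalized counts or more in the group where they were higher, and the other 22 rest on few counts. In 267 of the 282 called genes the 4 vehicle libraries all lay on the same side of the 4 unstimulated ones. Over all tested genes this held for 6.93%, with vehicle above in 3.8% and below in 3.13%. Protein-coding genes made up 177 of the 179 rises. Of the 103 falls, 83 were protein coding and 16 were pseudogenes of mitochondrial genes, which are described last.

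**Figure D1:**
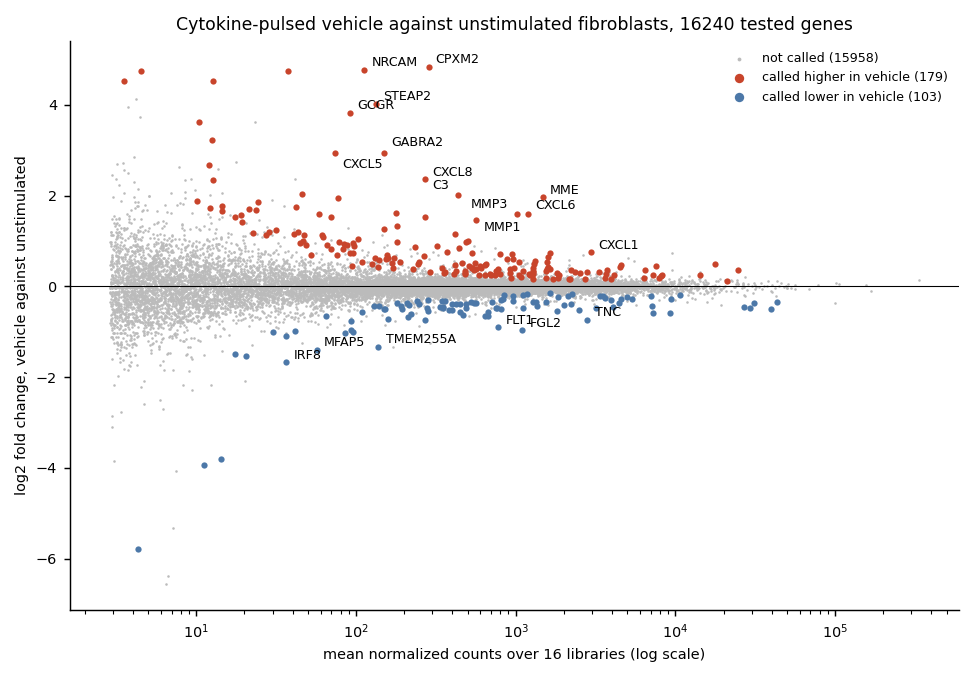
Log2 fold change of vehicle against unstimulated cells (vertical axis) by mean normalized counts over 16 libraries (horizontal axis, log scale), with each point a tested gene. The 179 genes called higher are red, the 103 called lower are blue and the rest grey; the largest rises of well-measured genes, such as CPXM2 and NRCAM, are larger than the falls of genes at like levels.

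Among called genes with a mean of at least 50 normalized counts in vehicle and no overlap between the groups, the largest rises were in genes with few counts in unstimulated cells. The rule favours such genes, since its floor applied to vehicle alone. CPXM2 encodes a secreted protein of the metallocarboxypeptidase family that lacks the residues for catalysis. It stood at 11.58, 10.01, 9.765 and 15.62 normalized counts (counts divided by a library's size factor) in the 4 unstimulated libraries and at 358.8, 372.7, 284.1 and 326.4 in the 4 vehicle libraries. The absence of overlap was required by the rule. The log2 fold change was 4.84 (SE 0.23, DESeq2 adjusted p 2.05e-91). NRCAM encodes a cell adhesion molecule of the L1 family, best known from axon guidance. It lay at 2.895 to 6.834 normalized counts in unstimulated and at 125.5 to 188.1 in vehicle libraries, a log2 fold change of 4.77 (SE 0.33). GCGR, the glucagon receptor, lay at 6.834 to 13.32 and 109 to 149.5 (log2 fold change 3.82, SE 0.30). GABRA2, a subunit of the GABA-A chloride channel, lay at 20.02 to 38.6 and 170.4 to 263.7 (log2 fold change 2.93, SE 0.28). Vehicle library 16 was the highest for NRCAM and GABRA2, and without it the values were 4.64 and 2.81. The calls of CPXM2, NRCAM, GCGR and GABRA2 were kept under every alternative fit.

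A pair of neighbouring genes on the long arm of chromosome 7 rose together. STEAP1 and STEAP2 encode membrane proteins of a family of metalloreductases, which pass electrons to iron and copper, and STEAP1 itself lacks the domain that binds NADPH. On GRCh38, STEAP1 lies at chr7:90154456-90164829 and STEAP2 at chr7:90167590-90238137, with a gap of 2760 bases. STEAP2 stood at 6.755, 8.009, 10.65 and 11.72 normalized counts in unstimulated libraries and at 179.9, 147.6, 136.9 and 139.2 in vehicle libraries (log2 fold change 4.02, SE 0.26, DESeq2 adjusted p 5.75e-52). STEAP1 had 4.825, 1.001, 0.8877 and 0 normalized counts in unstimulated libraries, at or near the limit of detection, and 59.96, 36.41, 35.4 and 47.03 in vehicle (log2 fold change 4.74, SE 0.60, DESeq2 adjusted p 2.03e-12). Of the other tested members of the family, STEAP3 was at 0.11 (SE 0.11) and was not called. In all, 2 of 4 tested members rose, and the family median of 2.07 falls between their values and those of the uncalled members.

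Nor did the other families of these leading genes move as a whole. Among 10 tested metallocarboxypeptidases, CPXM2 rose and AEBP1, a secreted collagen-binding relative, fell by 0.50 (SE 0.11), with a median of -0.0002. AEBP1 ran from 903.3 to 1213 normalized counts in unstimulated and from 658.4 to 841.3 in vehicle libraries, without overlap. Of 14 tested members of the L1 and contactin families of neural adhesion molecules, NRCAM rose and 4 fell. These were CHL1, the close relative of L1, and the 3 contactin-associated genes CNTNAP3, CNTNAP3B and CNTNAP3C. Over all tested genes 1.1% were called higher and 0.634% lower. CHL1 went from 7267 to 7603 normalized counts in unstimulated to 6240 to 6939 in vehicle libraries (log2 fold change -0.21, SE 0.05), a call lost under edgeR (-0.22, edgeR adjusted p 0.051). CNTNAP3 went from 572.3 to 684.4 down to 402.5 to 443.5 (log2 fold change -0.63, SE 0.12), CNTNAP3B from 2906 to 3410 down to 1911 to 2371 (-0.51, SE 0.11) and CNTNAP3C from 95.54 to 148.2 down to 51.23 to 73.29 (-1.02, SE 0.22). These 3 genes are near-identical copies, and how reads were split among them is uncertain, so they are not 3 independent falls. L1CAM lay at 1.28 (SE 0.52, DESeq2 adjusted p 0.312) and was uneven in vehicle, from 45.64 to 204.6. Among 7 tested GABA-A subunits GABRA2 alone was called, with a list median of -0.34, and among 5 tested class B hormone receptors GCGR alone, with a median of -0.12.

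**Figure D2:**
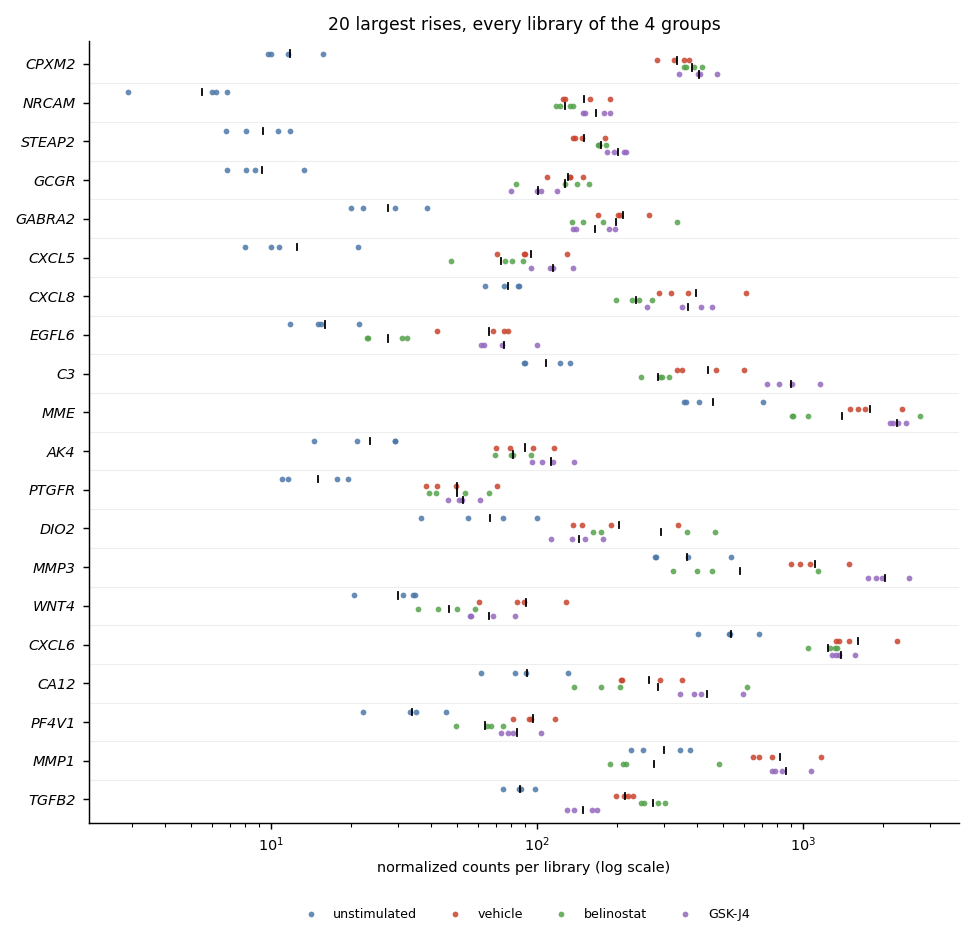
Normalized counts per library (horizontal axis, log scale) of the 20 largest rises under the naming rule, with a point for each of the 4 libraries of the unstimulated, vehicle, belinostat and GSK-J4 groups and a bar at each group's mean. All vehicle points lie above all unstimulated points, which the naming rule required; belinostat points overlap unstimulated ones for MMP1 and MMP3.

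Most of the chemokines that attract neutrophils rose. They are the CXC chemokines that carry the ELR motif, the ligands of CXCR1 and CXCR2, and their genes lie together on chromosome 4. Of 7 genes listed, 6 were tested, with a list median of 1.28. CXCL1, CXCL3, CXCL5, CXCL6 and CXCL8 rose, 5 of the 6, beside 1.1% of all tested genes. CXCL8 stood at 85.89, 85.09, 63.92 and 75.18 normalized counts in unstimulated libraries and at 287.4, 319.1, 368.9 and 609.5 in vehicle libraries (log2 fold change 2.36, SE 0.22, DESeq2 adjusted p 7.26e-23). CXCL5 stood at 21.23, 10.01, 7.99 and 10.74 and at 89.47, 90.07, 70.79 and 130 (log2 fold change 2.93, SE 0.30). CXCL6 stood at 683.3, 527.6, 403.9 and 534.1 and at 1364, 1499, 1330 and 2257 (log2 fold change 1.59, SE 0.16). In all 3 genes vehicle library 16 was the highest library, and without it the log2 fold changes were 2.07, 2.75 and 1.38, each still called. CXCL1 rose from between 1983 and 2590 to between 2997 and 4904 normalized counts (log2 fold change 0.75, or 0.60 without vehicle library 16), and CXCL3 from between 41.98 and 65.62 to between 81.45 and 132.8 (0.97, or 0.80 without it). CXCL2 was not called (0.75, SE 0.31, DESeq2 adjusted p 0.329). Its 4 vehicle libraries, at 24.75 to 53.48, nevertheless lay above its unstimulated libraries, at 20.02 to 23.08. PPBP had no count in any library. CXCL1, CXCL2 and CXCL3 are close paralogs, and the split of reads among them carries an uncertainty that the SE does not hold.

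A gene without the ELR motif rose in the same stretch of chromosome 4. Between the start of CXCL8 and the end of CXCL2, at chr4:73740519-74099196 on GRCh38, a stretch of 358.7 kb, 8 genes were tested and 6 were called higher. The one outside the ELR group was PF4V1, which encodes a variant of platelet factor 4, a CXC chemokine without the ELR motif. It stood at 22.19 to 45.36 normalized counts in unstimulated and 81.45 to 117.1 in vehicle libraries (log2 fold change 1.52, SE 0.21, DESeq2 adjusted p 8.47e-10, and 1.41 without vehicle library 16). Its near-identical copy PF4 was at 2.37 (SE 0.96, DESeq2 adjusted p 0.296) on few counts and was not called. In a list of other chemokines, which did not hold PF4V1, 11 members were tested and 0 were called by DESeq2, although all 11 had positive log2 fold changes, with a median of 0.30. The nearest was CCL11, the eosinophil attractant eotaxin, at 121.1 to 181.1 normalized counts in unstimulated and 184.4 to 262.7 in vehicle libraries (log2 fold change 0.62, SE 0.22, DESeq2 adjusted p 0.146). CCL2 (0.14, SE 0.14), the monocyte attractant, and CXCL12 (0.21, SE 0.13), the ligand of CXCR4, were not called either.

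The DNA just upstream of these genes is shown because the tested ELR genes share a match to an NF-kB pattern there. Sequences are from RefSeq on GRCh38 and run 5′ to 3′ on the gene's own strand from 140 to 51 bases before the listed start. Capitals mark matches, on either strand, to the NF-kB patterns GGANNTTCC and GGGA followed by any 4 bases and CC, which can overlap each other, and to the AP-1 pattern TGANTCA.
CXCL8, chr4:73740429-73740518: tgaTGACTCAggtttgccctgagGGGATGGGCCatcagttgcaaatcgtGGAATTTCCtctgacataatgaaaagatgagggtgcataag
CXCL6, chr4:73836538-73836627: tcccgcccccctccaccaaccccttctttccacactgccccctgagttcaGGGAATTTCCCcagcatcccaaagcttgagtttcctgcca
CXCL5, chr4:73998728-73998817: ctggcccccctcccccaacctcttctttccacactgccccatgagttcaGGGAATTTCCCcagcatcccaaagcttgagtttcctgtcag
CXCL1, chr4:73869253-73869342: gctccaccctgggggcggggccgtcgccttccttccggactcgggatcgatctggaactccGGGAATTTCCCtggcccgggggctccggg
CXCL2, chr4:74099246-74099335: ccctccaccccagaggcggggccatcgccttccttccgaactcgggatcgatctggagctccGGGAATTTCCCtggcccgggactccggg
PF4V1, chr4:73853156-73853245: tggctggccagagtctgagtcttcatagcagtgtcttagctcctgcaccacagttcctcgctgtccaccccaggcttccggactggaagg

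The match to GGANNTTCC began 91 bases before the listed start in CXCL8, 89 in CXCL6, 90 in CXCL5, 78 in CXCL1 and CXCL3 and 77 in CXCL2, which was not called. PF4V1 rose and had no such match in its window. Over the 250 bases before the start, GGANNTTCC was present in 355 of 9009 tested genes that had a single listed start, or 3.94%. It was present in 9 of the 83 such genes called higher (10.8%) and in 0 of the 38 called lower. The 9 were CXCL8, CXCL6, CXCL5, CXCL3, CXCL1, STEAP1, TNFAIP3, COL7A1 and PDLIM5, of which PDLIM5 was named after its values had been seen, and 5 of them are the chemokines above. The looser NF-kB pattern was in 37.3% of these rises and 27.2% of these tested genes, TGANTCA in 4.82% and 4.07%, and the C/EBP pattern TTGCNNAA, with its reverse complement, in 8.43% and 5.94%. A match is a stretch of letters and does not show that a factor bound there.

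The inflammatory fibroblast program is a list of 11 genes that the study treats as markers of that state and assessed in cells pulsed in this way. The list was taken up here with earlier results of these data known, so its direction is not independent evidence. All 11 were tested, 7 rose and 0 fell, beside 1.1% and 0.634% of all tested genes. The median log2 fold change was 0.75 beside -0.0048 over all tested genes. The 7 were the chemokines CXCL1, CXCL3, CXCL5 and CXCL8 and the matrix genes COL7A1, MMP1 and MMP3. edgeR called 5, without COL7A1 and MMP3. COL7A1 also lost its call without unstimulated library 2 or vehicle library 13 or 16, which left 6, and without vehicle library 16 the median was 0.60. Of the surface markers of activated fibroblasts in the list, PDPN, podoplanin, lay at 504.5 to 1175 normalized counts in unstimulated and 1086 to 1642 in vehicle libraries (log2 fold change 0.59, SE 0.23, DESeq2 adjusted p 0.252). Only the fit without unstimulated library 1 called it, at 0.77. THY1 (-0.08, SE 0.12) and FAP (0.01, SE 0.24) were not called.

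Receptors for the pulsed cytokines and genes of NF-kB signalling held 1 call each, against 1.74% of all tested genes. Of 10 tested receptor and antagonist genes for TNF, OSM, IL-17A and IL-1B, 1 was called, OSMR, the OSM-specific receptor chain. It lay at 5634 to 6309 normalized counts in unstimulated and 6369 to 6973 in vehicle libraries (log2 fold change 0.19, SE 0.04, DESeq2 adjusted p 0.00246), and the call was lost under edgeR (0.19, edgeR adjusted p 0.0778). IL1R1, the signalling receptor for IL-1B, had vehicle libraries (4321 to 5020) above all unstimulated ones (3705 to 4157) but was not called (0.23, SE 0.11, DESeq2 adjusted p 0.527). A fit of the 8 libraries alone called it (adjusted p 0.0442). TNFRSF1A (-0.02), TNFRSF1B (0.38), LIFR (0.03), IL6ST (0.09), IL17RA (-0.05), IL17RC (-0.03), IL1RAP (0.08) and IL1RN (-0.17) were not called, and IL1R2 had at most 1.001 normalized counts in a library. Of 17 genes of NF-kB subunits, inhibitors and feedback, 1 rose. This was TNFAIP3, which encodes A20, an enzyme that edits ubiquitin and shuts NF-kB signalling down, at 152.3 to 218.2 normalized counts in unstimulated and 218.5 to 373.4 in vehicle libraries (log2 fold change 0.67, SE 0.15, DESeq2 adjusted p 0.00142). NFKBIA (0.04), NFKB1 (0.01) and RELA (-0.03) were not called. RELB could not be read, since it ran from 8.009 to 131.4 among unstimulated and from 0 to 65.16 among vehicle libraries.

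By DESeq2, 0 of 14 tested AP-1 and C/EBP genes and 0 of 12 genes of the IL-6 family and STAT3 feedback were called, with medians of 0.05 and 0.0003. FOSL1, an AP-1 subunit, had non-overlapping libraries (0.45, SE 0.18, DESeq2 adjusted p 0.272), and CEBPB was at -0.16 (SE 0.12). IL11 (0.04), LIF (0.37), SOCS3 (-0.01) and STAT3 (0.01) were not called. Of 6 transcription factors taken from the larger number that the study connects with the inflammatory state, 0 were called by DESeq2. They were GLI3 (0.22), TWIST1 (-0.12), ETV4 (0.31), PRDM1 (0.19), RELB and CEBPB. Among 20 tested interferon-stimulated genes 0 were called by DESeq2 either, 16 had positive values and the median was 0.13. Their spread within a group was wide, as for MX1 at 981.9 ± 897 normalized counts in unstimulated and 995.5 ± 1100 in vehicle libraries (SD, n = 4).

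Complement and prostaglandin genes each held few but large differences. C3, the central complement protein, stood at 89.75, 133.1, 121.6 and 89.82 normalized counts in unstimulated libraries and at 473, 337.3, 351.2 and 602.1 in vehicle libraries (log2 fold change 2.02, SE 0.19, DESeq2 adjusted p 1.16e-22). Vehicle library 16 was again the highest, and without it the value was 1.83. C3 alone was called among 16 tested complement genes, whose median was 0.03. C4B (0.47, SE 0.14, DESeq2 adjusted p 0.0657) had non-overlapping libraries and was not called. Among 17 tested prostaglandin genes a pair of receptors moved in opposite directions. PTGFR, the receptor for prostaglandin F2-alpha, rose from 11.01 to 19.53 normalized counts in unstimulated to 38.19 to 70.43 in vehicle libraries (log2 fold change 1.74, SE 0.29, DESeq2 adjusted p 9.28e-07). PTGER3, a receptor for prostaglandin E2, went from 122.5 to 164.2 down to 59.61 to 106.4 (0.499 times the unstimulated level, SE 0.28 on the log2 scale, DESeq2 adjusted p 0.0281). The PTGER3 call was lost under edgeR (log2 fold change -1.01) and without unstimulated library 1 (-0.96), 2 (-0.95) or 4 (-1.02) or vehicle library 13 (-0.95), 15 (-0.91) or 16 (-0.94). The fit of the 8 libraries alone kept it (DESeq2 adjusted p 0.000138). PTGS2, the inducible cyclooxygenase, was not called (0.87, SE 0.31, DESeq2 adjusted p 0.173), although its vehicle libraries, at 121.1 to 166.9, lay above its unstimulated ones, at 53.7 to 119.7.

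Matrix enzymes differed in 2 of 18 tested metalloproteinase and inhibitor genes, which are neighbours on chromosome 11 with a gap of 37640 bases. MMP1, the interstitial collagenase, stood at 376.4, 346.4, 225.5 and 250.9 normalized counts in unstimulated libraries and at 767.2, 647.8, 687.4 and 1174 in vehicle libraries (log2 fold change 1.45, SE 0.31, DESeq2 adjusted p 0.000446, and 1.23 without vehicle library 16). MMP3, stromelysin, stood at 538.5, 369.4, 279.6 and 277.3 and at 1063, 904.6, 972.5 and 1498 (log2 fold change 1.60, SE 0.36, and 1.42 without vehicle library 16). MMP3 was not called under edgeR (1.59, edgeR adjusted p 0.0594). The fit of the 8 libraries alone called it (DESeq2 adjusted p 3.52e-06). The groups did not overlap in either gene, which the naming rule required. MMP2 (-0.04), MMP14 (-0.03), TIMP1 (0.03) and TIMP2 (-0.14) were not called, and the list median was -0.02. MME, neprilysin, a membrane peptidase that degrades small peptides, rose too. It lay at 357.3 to 408.4 in unstimulated libraries 2 to 4 and 706.4 in library 1, against 1500 to 2354 in vehicle (log2 fold change 1.96, SE 0.35, DESeq2 adjusted p 7.33e-06, and 1.81 without vehicle library 16).

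The main structural collagens were not called. COL1A1 was at 0.07 (SE 0.08), COL1A2 at 0.01 (SE 0.04) and COL3A1 at 0.06 (SE 0.06), and the median over 28 tested collagen chains was 0.04. Of these chains 3 rose, COL7A1, COL8A1 and COL24A1, beside 1.1% of all tested genes. COL8A1, a short-chain collagen of basement membranes, lay at 322.3 to 388.8 normalized counts in unstimulated and 476.7 to 566.3 in vehicle libraries (log2 fold change 0.51, SE 0.11, DESeq2 adjusted p 0.000695). COL24A1, a minor fibrillar collagen, lay at 28.95 to 59.48 and 69.95 to 76.14 (log2 fold change 0.90, SE 0.20). COL7A1, the collagen of anchoring fibrils, lay at 3143 to 4263 and 4281 to 5563 (log2 fold change 0.43, SE 0.11). The COL7A1 call was lost under edgeR (0.42) and without unstimulated library 2 (0.40) or vehicle library 13 (0.41) or 16 (0.35).

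Among 22 elastic fibre genes 2 fell and 0 rose, and among 16 matricellular genes 2 fell and 1 rose. Over all tested genes 0.634% were called lower and 1.1% higher. MFAP5, a microfibril protein, stood at 84.93, 92.1, 82.56 and 110.3 normalized counts in unstimulated libraries and at 45.69, 25.87, 40.98 and 27.66 in vehicle libraries (log2 fold change -1.40, SE 0.39, DESeq2 adjusted p 0.0281). EFEMP1, fibulin-3, went from 7555 to 9633 down to 4952 to 7338 (-0.44, SE 0.13). TNC, tenascin C, went from 2733 to 3896 down to 1696 to 2301 (-0.74, SE 0.22), and THBS2, thrombospondin 2, from 2963 to 4689 down to 2139 to 2977 with overlap (-0.47, SE 0.14). CCN4, a secreted WNT target, rose from 1019 to 1091 up to 1106 to 1418 (0.27, SE 0.08). All 5 of these calls were lost under edgeR, at -1.40, -0.45, -0.75, -0.48 and 0.26. They were also lost in most of the 8 fits that leave out a library. MFAP5 kept its call only without unstimulated library 3 or vehicle library 13, EFEMP1 without unstimulated library 1 or vehicle library 13 or 14, TNC without unstimulated library 2, THBS2 without unstimulated library 1 and CCN4 without vehicle library 16. In the fits that lost the call MFAP5 ran from -1.48 to -1.28, EFEMP1 from -0.45 to -0.33, TNC from -0.81 to -0.66, THBS2 from -0.51 to -0.35 and CCN4 from 0.21 to 0.29. The fit of the 8 libraries alone kept all 5 calls, that of MFAP5 at a DESeq2 adjusted p of 4.59e-07.

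Growth factor genes were called in several families, with no family moving as a whole. Of 26 tested TGF-beta, activin and BMP genes, TGFB2 and BMP2 rose and SMAD6, an inhibitor of BMP signalling, fell, and the median was -0.03. The shares called over all tested genes were 1.1% higher and 0.634% lower. TGFB2, a TGF-beta ligand, stood at 74.31, 87.09, 85.22 and 98.61 normalized counts in unstimulated libraries and at 198.9, 229, 213.3 and 219.5 in vehicle libraries (log2 fold change 1.32, SE 0.13, DESeq2 adjusted p 3.32e-22). TGFB1 was at -0.06 (SE 0.06). The spread of TGFB2 within each group was small beside the difference, and its call was kept under every alternative fit. BMP2 lay at 1104 to 1268 and 1419 to 1683 (0.38, SE 0.11) and SMAD6 at 1038 to 1215 and 841.9 to 977.4 (-0.33, SE 0.10). Both calls were lost under edgeR (0.37 and -0.33) and without unstimulated library 2, 3 or 4 or vehicle library 15 or 16, where BMP2 ran from 0.33 to 0.40 and SMAD6 from -0.35 to -0.29, and that of SMAD6 also without vehicle library 13 (-0.30). CHRDL1, a BMP antagonist, had the lowest value of the list, at 352.2 to 644.5 and 121.7 to 250.1, and was just short of a call (-1.25, SE 0.38, DESeq2 adjusted p 0.0525).

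Among 19 tested WNT ligands and antagonists 3 rose and 0 fell, beside 1.1% and 0.634% of all tested genes, with a median of -0.05. WNT4, a WNT ligand, stood at 34.74, 34.04, 20.42 and 31.24 normalized counts in unstimulated libraries and at 83.76, 60.37, 89.42 and 129.1 in vehicle libraries (log2 fold change 1.60, SE 0.26, DESeq2 adjusted p 4.16e-07, and 1.38 without vehicle library 16). WNT5A, a ligand of the non-canonical branch, lay at 3663 to 3848 and 4612 to 6432 (0.48, SE 0.09, and 0.37 without vehicle library 16). APCDD1, a membrane inhibitor of WNT signalling, lay at 634.7 to 726.7 and 782.4 to 1253 (0.72, SE 0.16) and was lost under edgeR (0.71, edgeR adjusted p 0.0593). RSPO2, a WNT enhancer, had non-overlapping libraries in the other direction, at 715.1 to 923.2 and 406.6 to 629.5, and was not called (-0.61, SE 0.20, DESeq2 adjusted p 0.112). In the insulin-like growth factor list, STC1, stanniocalcin 1, an inhibitor of the protease PAPP-A, was called alone of 14. It rose from between 268.5 and 349.8 to between 444.6 and 782.8 normalized counts (log2 fold change 0.97, SE 0.18, DESeq2 adjusted p 1.97e-05).

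Besides MME and PF4V1, described above, the rises under the naming rule that belong to none of these lists were EGFL6, AK4 and DIO2, and CA12 belongs to the list of universal fibroblast markers. EGFL6, a secreted protein with EGF-like repeats, lay at 11.72 to 21.31 normalized counts in unstimulated and 41.92 to 77.62 in vehicle libraries (log2 fold change 2.04, SE 0.28, DESeq2 adjusted p 5.90e-10). AK4, a mitochondrial adenylate kinase, lay at 14.48 to 29.3 and 69.86 to 116.1 (log2 fold change 1.94, SE 0.23, DESeq2 adjusted p 1.18e-13). DIO2, the deiodinase that makes active thyroid hormone, lay at 36.67 to 100.3 and 137 to 337.9 (log2 fold change 1.61, SE 0.42, DESeq2 adjusted p 0.0109). The spread of DIO2 was wide in both groups, and its call was lost under edgeR (1.59) and without unstimulated library 1 (1.41) or 2 (1.53). CA12, a carbonic anhydrase, lay at 61.51 to 130.3 and 207.9 to 352.2 (log2 fold change 1.53, SE 0.43, DESeq2 adjusted p 0.0274). Its call was lost under edgeR (1.53) and without unstimulated library 2 (1.53), 3 (1.49) or 4 (1.39) or vehicle library 13 (1.49), 15 (1.63) or 16 (1.36). The fit of the 8 libraries alone kept it (DESeq2 adjusted p 1.53e-08). Besides CA12 and MFAP5, 0 of the 9 tested universal fibroblast markers were called by DESeq2, among them DPP4 (0.01) and CD248 (0.13).

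Among the falls with a mean of at least 50 normalized counts in unstimulated cells and no overlap between the groups, the largest was in IRF8, a transcription factor of the interferon regulatory family. It stood at 48.25, 86.09, 75.46 and 82.99 normalized counts in unstimulated libraries and at 30.46, 28.75, 15.84 and 16.6 in vehicle libraries (log2 fold change -1.68, SE 0.33, DESeq2 adjusted p 7.97e-05). FGL2, a fibrinogen-like protein, stood at 1749, 1577, 1495 and 1584 and at 1136, 757, 757.3 and 620.6 (log2 fold change -0.97, SE 0.15, DESeq2 adjusted p 4.92e-08). FLT1, a receptor for VEGF, stood at 1061, 1284, 1336 and 1233 and at 550.1, 800.1, 795.5 and 484.1 (log2 fold change -0.90, SE 0.15). Vehicle library 16 was the lowest for FGL2 and FLT1, and without it the values were -0.86 and -0.78. The calls of IRF8, FGL2 and FLT1 were kept in every alternative fit, although FGL2 in vehicle library 13 lay well above the other vehicle libraries. ISL1, a homeobox factor, went from 121.6 to 156.2 down to 57.11 to 82.41 (-0.95, SE 0.20), and TMEM255A, a membrane protein, from 167.9 to 339.1 down to 80.22 to 123 (-1.33, SE 0.29). NPR3, the clearance receptor for natriuretic peptides, went from 240.3 to 411.9 down to 126.3 to 237.5 (-0.74, SE 0.19). Its call was lost under edgeR (-0.75) and without unstimulated library 2 (-0.71) or 3 (-0.60) or vehicle library 16 (-0.58). MBP, myelin basic protein, fell by 0.75 (SE 0.20), a call lost under edgeR (-0.76) and in the fits without unstimulated library 1, 2 or 3 or vehicle library 14, 15 or 16 (-0.78 to -0.71). WHAMMP3, a pseudogene, fell by 1.10 (SE 0.28), and its call was lost without unstimulated library 3 (-0.93) or vehicle library 15 (-1.06).

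**Figure D3:**
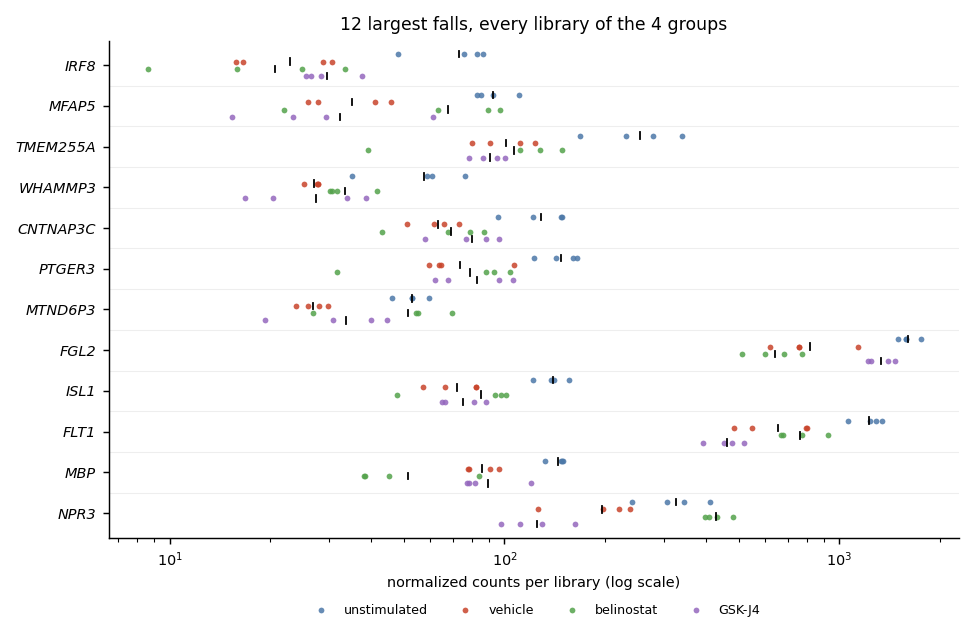
Normalized counts per library (horizontal axis, log scale) of the 12 largest falls under the naming rule, with a point for each of the 4 libraries of the unstimulated, vehicle, belinostat and GSK-J4 groups and a bar at each group's mean. All vehicle points lie below all unstimulated points, which the naming rule required; NPR3 under belinostat lies in the upper part of the unstimulated range or above it.

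Contractile genes, which mark myofibroblasts and smooth muscle, leaned slightly lower, with 11 of 14 tested members negative and a median of -0.10. The 2 that were called rose, beside 1.1% of all tested genes. MYLK, the myosin light chain kinase, lay at 10328 to 11776 normalized counts in unstimulated and 11445 to 14190 in vehicle libraries, with overlap (log2 fold change 0.26, SE 0.07, DESeq2 adjusted p 0.0335). MYOCD, myocardin, the coactivator that drives smooth muscle genes, lay at 6612 to 7896 and 8121 to 8778 (0.23, SE 0.06, DESeq2 adjusted p 0.0119). Both calls were lost under edgeR (0.25 and 0.22). That of MYLK was also lost without unstimulated library 1 (0.25), 2 (0.26) or 3 (0.22) or vehicle library 13 (0.23), 14 (0.22) or 15 (0.26), and that of MYOCD without unstimulated library 2 (0.19) or 3 (0.21) or vehicle library 14 (0.21) or 15 (0.22). ACTA2, smooth muscle actin, was not called (-0.34, SE 0.11, DESeq2 adjusted p 0.115), and its reads may be shared with ACTG2.

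Proliferation genes were at low counts and leaned higher, with 15 of 17 positive and a median of 0.44. Of the 17, 3 were called higher, beside 1.1% of all tested genes. TOP2A, a DNA topoisomerase of dividing cells, lay at 32.85 to 55.97 normalized counts in unstimulated and 55.32 to 84.76 in vehicle libraries (log2 fold change 0.81, SE 0.23). RRM2, which makes deoxynucleotides, lay at 9.651 to 19.53 and 26.65 to 39.29 (1.23, SE 0.36), and BIRC5, survivin, at 2.663 to 6.755 and 13.33 to 15.33 (1.66, SE 0.48). All 3 calls were lost under edgeR (0.81, 1.22 and 1.62) and in most of the 8 fits that leave out a library. TOP2A kept its call only without unstimulated library 1 or vehicle library 16, RRM2 without unstimulated library 4 or vehicle library 13 and BIRC5 without unstimulated library 1. In the fits that lost the call TOP2A ran from 0.70 to 0.86, RRM2 from 1.09 to 1.28 and BIRC5 from 1.46 to 1.80, and BIRC5 was also lost in a fit of the 8 libraries alone (1.66). PCNA (0.14), MCM3 (0.09) and TYMS (0.16) were not called. The 17 tested histone deacetylases and enzymes acting on lysine 27 of histone H3, the targets of both compounds among them, held 0 calls by DESeq2, and their values lay between -0.14 and 0.15.

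**Figure D4:**
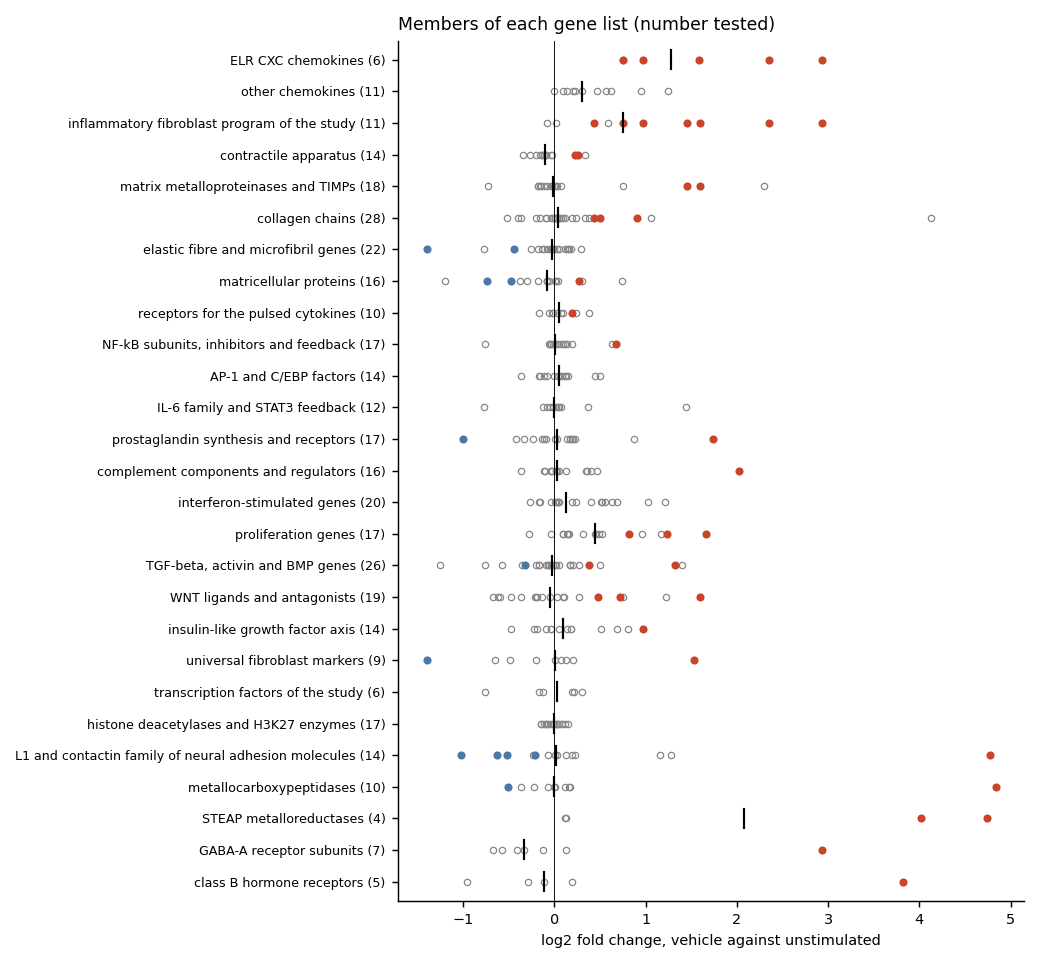
Log2 fold change of vehicle against unstimulated cells (horizontal axis) for the tested members of each gene list (a line per list, number tested in brackets). Filled red points are genes called higher, filled blue points genes called lower, open points genes not called and black bars the median. Among lists with at least 5 tested genes the ELR CXC chemokines sit furthest to the right, with a median of 1.28.

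Levels in the cells that had received a compound after the pulses are given next. Vehicle, belinostat and GSK-J4 were all set against the same 4 unstimulated libraries, so the values below share their controls and are placed side by side with no test between them. Of the 20 rises, all 4 belinostat libraries lay above every unstimulated library in 18 and all 4 GSK-J4 libraries did in 20. Over all tested genes this held for 6.16% under belinostat and 6.83% under GSK-J4, but the rises were chosen as high against the same unstimulated libraries, so nothing is read from these counts. CPXM2 was at 335.5 ± 39.4 normalized counts in vehicle, 382.2 ± 27 under belinostat and 407.5 ± 53.7 under GSK-J4 (SD, n = 4), and its log2 fold changes against unstimulated cells were 4.84, 5.03 and 5.12. NRCAM was at 149.8 ± 29.5, 127.5 ± 8.71 and 166.9 ± 19.5. The exceptions under belinostat were MMP1 and MMP3. MMP1 was at 819 ± 242, 274.5 ± 139 and 867.5 ± 143, against 299.8 ± 72.9 in unstimulated cells, and MMP3 at 1110 ± 267, 580.4 ± 377 and 2037 ± 330. Belinostat library 17 was the highest of its group for both, at 482.1 for MMP1 and 1140 for MMP3. The other belinostat libraries lay at 189 to 215.8 and 323.9 to 457.4. EGFL6 was at 65.74 ± 16.4, 27.41 ± 5.05 and 74.85 ± 17.9, and C3 at 440.9 ± 124, 286.6 ± 29.3 and 902.7 ± 184. Of the 12 falls, all belinostat libraries lay below every unstimulated library in 8 and all GSK-J4 libraries in 10. Over all tested genes this held for 5.19% and 5.35%, and the same limit holds. The exceptions were MFAP5, WHAMMP3, MTND6P3 and NPR3 under belinostat and WHAMMP3 and CNTNAP3C under GSK-J4. NPR3 was at 195.1 ± 48.7 in vehicle, 428.6 ± 36.7 under belinostat and 125.2 ± 28.1 under GSK-J4, against 325.5 ± 71.7 in unstimulated cells.

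The remaining falls were a group that was noticed in the results and so carries no test as a list. Pseudogenes of mitochondrial genes are copies of mitochondrial DNA in the nuclear chromosomes, and their sequence is close to that of the mitochondrial transcripts, which are not in the table. Of 37 tested, 35 had negative log2 fold changes, with a median of -0.40, and 16 were called lower, at -0.98 to -0.35, whereas 0 were called higher. Over all tested genes 0.634% were called lower. The copies resemble the same transcripts, and 8 pairs of called copies lay within 100 kb of each other, so these are not 16 independent falls. The largest fall among them was in MTND6P3, which stood at 53.08, 53.06, 46.16 and 59.56 normalized counts in unstimulated libraries and at 23.8, 29.7, 27.94 and 25.82 in vehicle libraries (log2 fold change -0.98, SE 0.28, DESeq2 adjusted p 0.0297). That call was lost under edgeR (-0.98) and in every fit that leaves out a library except the one without unstimulated library 3 (-1.03 to -0.92 in the others). All such pseudogenes together took 1.94% to 2.26% of the counts in unstimulated libraries and 1.51% to 1.73% in vehicle libraries, with group means of 2.11% ± 0.138 and 1.60% ± 0.0991 (SD, n = 4). The groups did not overlap. The share was 1.95% ± 0.214 under belinostat, which overlapped the unstimulated range and the vehicle range. It was 1.28% ± 0.185 under GSK-J4, which overlapped the vehicle range. Whether reads of mitochondrial transcripts were counted on these copies was not tested. Without them the fit called 262 genes, 86 of them lower.

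**Figure D5:**
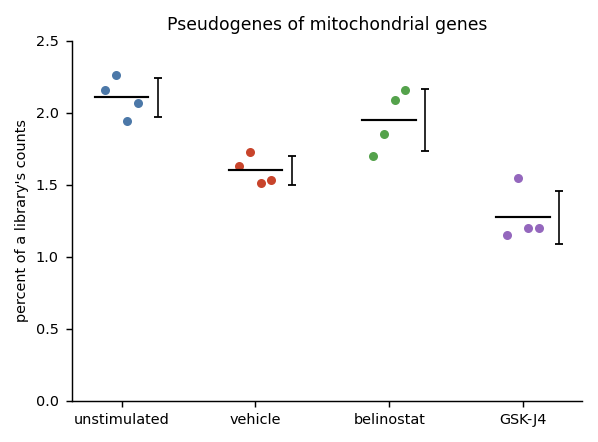
Share of a library's estimated counts on pseudogenes of mitochondrial genes (vertical axis, percent) for the 4 libraries of each group, with a line at the group mean and an SD bar beside it. The vehicle libraries, at 1.51% to 1.73%, lie below the unstimulated ones, at 1.94% to 2.26%.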

How the data were processed

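Bulk RNA-seq libraries were grouped from the labels into 4 groups of 4. The authors quantified the reads with kallisto and deposited estimated counts per gene symbol. The submitters' processing notes name kallisto 0.48.0, FastQC 0.11.9, MultiQC 1.14 and the build hg38. Neither the transcriptome release nor how transcripts became symbols was given in the sources used here. The table held 40663 symbols, and 28% of its values had decimals. These were rounded to whole numbers, and 0 columns were left unused. Gene coordinates and types are those of GENCODE release 44 on GRCh38, found by symbol for 16060 of the 16240 tested genes.

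All 16 libraries entered 1 DESeq2 fit (DESeq2 1.42.0, R 4.3.3), as the study names DESeq2, with no factor but group, size factors by the median of ratios, a two-sided Wald test, default independent filtering and log2 fold changes that were not shrunken. Calls were made at an adjusted p under 0.05 (Benjamini-Hochberg, over all tested genes). Replicates of a group correlated at r of 0.9958 to 0.9984 (Pearson, across variance-stabilised genes, which are not independent). The mean squared deviation between replicates, relative to sampling noise, was 2.97 to 31.3, so no library appeared to be deposited more than once. Its largest value was between unstimulated libraries 1 and 3. No molecular identifiers are shown.

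The text names the 20 largest rises and 12 largest falls among called genes with a mean of at least 50 normalized counts in the higher group and no overlap between the libraries. It also names every called member of 27 gene lists and all members of the ELR CXC, inflammatory program, transcription factor and receptor lists. Any other gene was chosen after its values were seen, except uncalled list members with a mean of at least 50 normalized counts. The members and lists were chosen with earlier results of these data known, and the inflammatory program is a set of markers that the study assessed in cells treated in this way. Lists are described by counts and medians, with no set test. Their counts stand beside 1.1% of all tested genes called higher and 0.634% called lower.

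Alternatives were edgeR's quasi-likelihood test (edgeR 4.0.16), TMM scaling, a filter of at least 10 counts in 4 libraries, the 8 libraries alone, leaving out each library in turn and, chosen after seeing the data, leaving out mitochondrial pseudogenes. The fits were tested on simulated data. Promoter sequences of 250 bases came from RefSeq, and 9009 tested genes had a single listed start, among them 83 of the 179 called higher and 38 of the 103 called lower.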

Additional observations from a re-analysis of the deposited data

Results flagged for a closer look

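In 156 groups of 4 unstimulated or 4 vehicle libraries, taken over the named genes, 10 had a library that stood apart from the other 3 by Dixon's test at its 95% level, which chance gives in about 1 of 20 groups. Vehicle library 16 was the lowest of its group for THBS2 (2139 normalized counts against 2893 to 2977), TOP2A (55.32 against 79.95 to 84.76), IL6ST (22830 against 26223 to 26485) and IL17RA (847.4 against 900.4 to 907.3). Vehicle library 15 was the lowest for WHAMMP3 (25.15 against 27.6 to 27.79) and the highest for CHL1 (6939 against 6240 to 6340). Vehicle library 14 was the highest for PTGER3 (106.4 against 59.61 to 64.72) and had the only counts of IL1R2 in its group (0.9582). Unstimulated library 1 was the highest for MME (706.4 against 357.3 to 408.4), and unstimulated library 4 the lowest for MBP (131.8 against 147.7 to 150). The direction of MME was kept without unstimulated library 1 (log2 fold change 2.25).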

How the results depend on the processing

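Of 1000 values, each the log2 fold change of a named gene under an alternative, 867 kept their side of the threshold, 131 lost the call, 2 gained it (PDPN at 0.77 without unstimulated library 1 and IL1R1 at 0.23 in the fit of 8 libraries) and 0 that were called in either fit changed direction. The sign changed in 11 values of 6 genes that were called in neither fit, FAP among them (0.01 and, without vehicle library 14, -0.13). edgeR called 159 genes, 108 higher and 51 lower, of which 157 were also DESeq2 calls, and it called 25 list members where DESeq2 called 44. The cause of the difference was not tested. Leaving out 1 library at a time gave 180 to 295 calls, 121 to 187 higher and 59 to 117 lower, with 28 to 41 beyond 1.5 on the log2 scale and 30 to 44 list members. The lowest number of calls, 180, came without unstimulated library 2, and falls were fewest, at 59, without that library, 60 without unstimulated library 4 or vehicle library 16 and 62 without vehicle library 15. TMM scaling gave 277 calls, the low-count filter 290 and the 8 libraries alone 315, of which 239 were among the 282. In all, 125 of the 282 genes were called under every alternative that gave a value, 86 higher and 39 lower, and 122 were not called by edgeR. At an unadjusted p under 0.05 there were 1449 genes by DESeq2 and 1517 by edgeR. Lists with 0 calls are thus lists without a call at this spread, not lists without a difference. No paired analysis was possible because the 2 groups share no replicate number.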

Other observations

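The genes in this paragraph were chosen after their values were seen. They are called genes outside the lists. IRAK3, a brake on IL-1 receptor and Toll-like receptor signalling, stood at 77.2, 84.09, 71.02 and 77.13 normalized counts in unstimulated libraries and at 185.6, 185.9, 185.4 and 181.6 in vehicle libraries (log2 fold change 1.26, SE 0.13, DESeq2 adjusted p 2.11e-20). It was at 174.9 under belinostat and 165.2 under GSK-J4 on average. PRRX1, a homeobox factor of mesenchyme, went from 148.3 to 258.6 up to 371.8 to 513 (1.15, SE 0.19). LPAR3, a receptor for lysophosphatidic acid, went from 264.5 to 349.4 up to 537.8 to 744.1 (1.00, SE 0.17). HGF, hepatocyte growth factor, went from 1323 to 1427 up to 1664 to 1939 (0.38, SE 0.07), and IL7, a growth factor of lymphocytes, from 90.1 to 117.7 up to 151.3 to 177.9 (0.57, SE 0.12). GDNF, a growth factor of enteric neurons, and GDF6, a BMP-type ligand, fell by 0.37 (SE 0.09) and 0.35 (SE 0.06). The calls of these 7 genes were kept under every alternative.

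Besides pairs of mitochondrial pseudogenes, 15 pairs of called genes that follow each other along a chromosome lay within 100 kb. Of these, 13 changed in the same direction, pairs of the chromosome 4 chemokines among them. Among these were MMP1 and MMP3, TK1 and BIRC5, LAMB3 and G0S2, MAP7 and MAP3K5, and STEAP1 and STEAP2. No comparison with other gene pairs was made.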
